A study of Mus musculus with 6 samples.

Results

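Cytosolic ribosomal protein genes were described in tumors of 4T1 cells, a mouse mammary carcinoma line. Members were the protein-coding genes whose symbols begin with Rpl or Rps and a number, with Rplp0, Rplp1, Rplp2 and Rpsa, and without pseudogenes, S6 kinases and mitochondrial ribosomal protein genes. The rule gave 86 of the 54146 gene rows in the deposited tables. Of these, 77 encode canonical proteins of the ribosome, 46 in the large (60S) and 31 in the small (40S) subunit, and 8 are paralogs of canonical genes. The remaining member, Rps19bp1, encodes a protein that binds Rps19 and is not part of the ribosome. The groups were 3 libraries of Ki-67-KO tumors, whose 4T1 cells lacked Mki67 (Mki67-/-), and 3 libraries of tumors from wild-type 4T1 cells. Both kinds of cell were grown for 3 weeks as tumors in mammary fat pads of nude mice, which lack a thymus and have few mature T cells. The labels give neither the number of knockout clones nor the age of the mice, so a difference between clones and one caused by the loss of Mki67 cannot be told apart.

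Each ribosome carries 1 copy of nearly every ribosomal protein, with the acidic P1 and P2 proteins of the stalk as the known exception, and proteins made in excess are degraded. Most messenger RNAs of these genes begin with a C followed by a run of pyrimidines, the 5′ terminal oligopyrimidine (TOP) tract, through which the mTOR kinase pathway and the La-related protein Larp1 set their translation. Free Rpl5 and Rpl11, with the 5S ribosomal RNA, can bind the p53 ligase Mdm2 when ribosome assembly fails. In mammary tumors, as in other growing tissues, ribosomal protein messages are among the most abundant in the cell.

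Gene counts per library ran from 22081970 to 30772729 read pairs in the knockout group and from 37065778 to 38399826 in the wild-type group. The share of pairs that did not map was 30.8%, 54.6% and 52.7% in knockout replicates 1, 2 and 3, and 31.2% to 33.9% in the wild-type libraries. Levels are CPM, counts scaled to the library's TMM-adjusted total, and a fold change is knockout over wild type. Mki67 lay at 98.7, 117 and 139 CPM in the knockout libraries and at 360, 395 and 325 CPM in the wild-type libraries (log2 fold change -1.61, SE 0.14, edgeR adjusted p = 6.79e-05). Epithelial markers were present in all libraries, with 5 of 6 higher in the knockout tumors and a summed level of 5458 to 5831 CPM, against 2814 to 2932 CPM in wild-type tumors. All 6 macrophage markers were lower, with sums of 463 to 656 CPM in knockout and 1572 to 1655 CPM in wild-type tumors. Of 6 fibroblast markers 5 were higher and 1 lower, with sums of 5268 to 10325 CPM in knockout and 3129 to 3978 CPM in wild-type tumors. Sums of the 6 keratinocyte markers were 718 to 1596 CPM in knockout and 72.2 to 126 CPM in wild-type tumors, and those of the 6 adipocyte markers 274 to 774 CPM in knockout and 70.2 to 109 CPM in wild-type tumors. The part of these shifts in the results below was not tested, and in bulk tissue fewer cells of a type and less RNA per cell cannot be told apart.

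Few of the ribosomal protein genes passed the test. Of 85 members tested, 5 were higher in knockout tumors, among them Rps2, Rpl13, Rpl39l and Rpl35, and 5 were lower, among them Rpl7l1, Rpl13a, Rplp2 and Rps13. Among all 19900 genes tested, 36% were past the same threshold, an adjusted p under 0.05 in edgeR's quasi-likelihood test with Benjamini-Hochberg adjustment over all genes, against 11.8% of the members. The background was 17.6% for higher and 18.4% for lower genes. The median log2 fold change was -0.13 over the members tested and 0.05 over all genes tested. An unadjusted p under 0.05 in the same test was found for 26 of the 85 members, and for 9273 of all 19900 genes tested. The groups did not overlap for 11 members on the higher and 10 on the lower side, with backgrounds of 24.5% and 26%. The split between higher and lower depended on the scaling. With library totals alone it was 10 higher and 3 lower. With scaling factors computed without the ribosomal protein genes it was 8 higher and 3 lower. In each of these fits 36.0% of all genes tested were called.

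**Figure D1:**
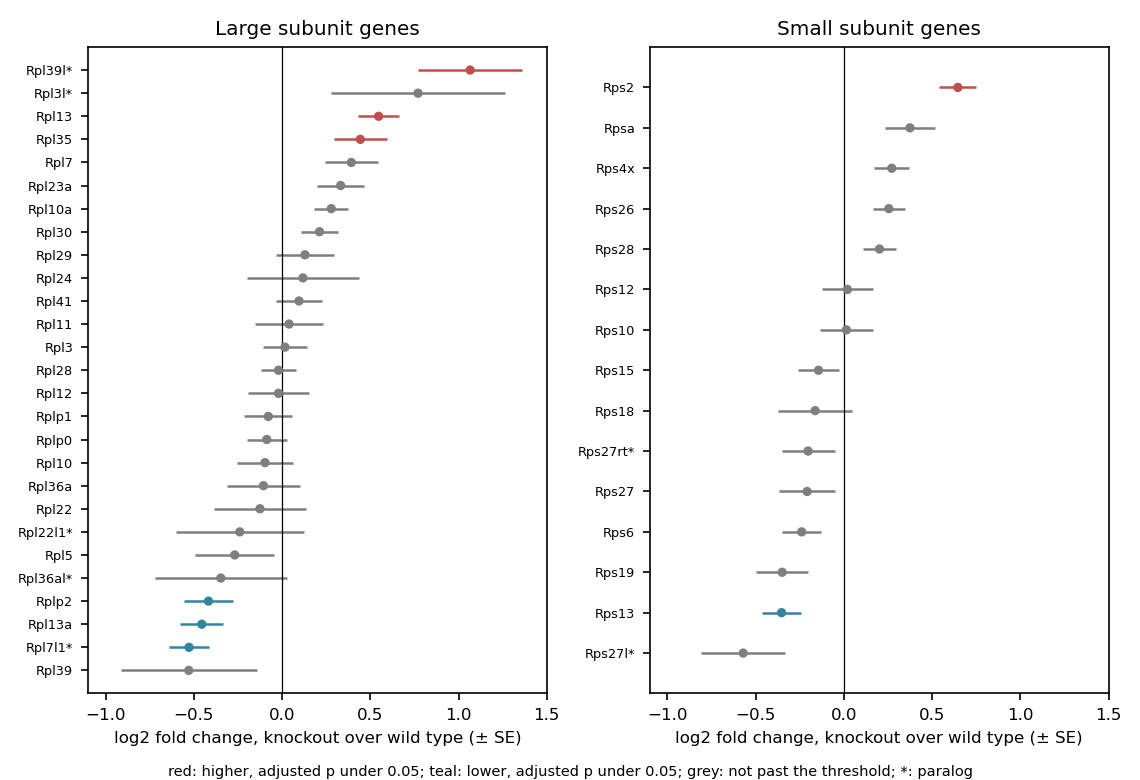
Log2 fold change of the tested ribosomal protein genes named in the text, knockout over wild type, with its SE as a horizontal bar (3 libraries in each group). Red points are the members that were higher and teal points those that were lower at an adjusted p under 0.05, and a star marks a paralog. Most points lie between -0.5 and 0.5, and the widest bars belong to Rpl3l, Rpl39, Rpl36al and Rpl22l1.

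The base sequences around the annotated start of transcription are shown for the called members found in RefSeq's promoter table (GRCm38.p6), because the TOP tract lies at this start. Each line runs from 40 bases before the start to 25 bases after it on the strand of the gene. Capitals mark the longest run of pyrimidines within 25 bases of the start.
Rps2 (chr17:24720023-24720087, plus strand): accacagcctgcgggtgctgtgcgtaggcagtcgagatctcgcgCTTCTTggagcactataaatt
Rpl13 (chr8:123102310-123102374, plus strand): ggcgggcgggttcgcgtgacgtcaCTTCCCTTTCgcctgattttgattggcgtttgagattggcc
Rpl35 (chr2:39005107-39005171, minus strand): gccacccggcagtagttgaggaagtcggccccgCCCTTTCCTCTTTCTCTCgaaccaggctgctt
Rpl39l (chr16:10170188-10170252, plus strand): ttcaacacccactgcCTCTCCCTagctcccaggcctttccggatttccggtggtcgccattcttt
Rpl7l1 (chr17:46782632-46782696, minus strand): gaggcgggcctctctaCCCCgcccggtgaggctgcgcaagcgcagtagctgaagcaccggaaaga
Rpl13a (chr7:45128721-45128785, minus strand): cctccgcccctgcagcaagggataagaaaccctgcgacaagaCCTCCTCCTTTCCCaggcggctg
Rplp2 (chr7:141447611-141447675, plus strand): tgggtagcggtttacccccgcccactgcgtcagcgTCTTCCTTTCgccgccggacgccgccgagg
Rps13 (chr7:116334166-116334230, minus strand): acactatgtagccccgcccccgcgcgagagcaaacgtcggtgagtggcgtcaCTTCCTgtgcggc
The run spans the annotated start in Rpl35, where it is 18 bases long, and in Rplp2, where it is 10 bases long. Rpl13a has a run of 14 bases just past the start. In the paralogs Rpl7l1 and Rpl39l the marked runs, of 4 and 8 bases within the limit of 25, lie before the start and do not reach it, and pyrimidines beyond that limit are not marked.

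Over the 66 members with a RefSeq promoter, a run of at least 8 pyrimidines spanned the annotated start in 22.7%, against 3.81% of 27025 mouse promoters of the same length. A run of at least 5 did so in 28.8% of members and 9.95% of all promoters. Of the letters searched on both strands from 250 bases before to 50 after the start, the ETS motif CCGGAAG was found in 37.9% of members and 9.12% of all promoters. The GC box GGGCGG was found in 60.6% of members and 35.9% of all promoters, and the YY1 motif AAGATGGC in 7.58% of members and 2.88% of all promoters. The TATA box TATAAA was found in 9.09% of members and 14.2% of all promoters, and the E box CACGTG in 7.58% of members and 7.24% of all promoters. A tract can begin at a start other than the annotated one, and a match is a description of the letters in the window.

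The gene coordinates below are of GRCm38 in GENCODE M21. Rps2 (ENSMUSG00000044533, chromosome 17, 24718116 to 24721929, plus strand) encodes a small-subunit protein at the entry of the messenger RNA channel. It stood at 879, 970 and 1046 CPM in knockout libraries, against 672, 590 and 588 CPM in wild-type libraries (log2 fold change 0.65, SE 0.11, edgeR adjusted p = 0.0022). All 3 knockout libraries lay above all 3 wild-type libraries. Pseudogenes with the name of Rps2 took a large part of the counts, however. Among them, Rps2-ps10 held 1102, 335 and 373 CPM in knockout libraries and 868, 759 and 712 CPM in wild-type libraries. Rps2 itself therefore took 43.7%, 71.4% and 70.8% of the counts of Rps2 and the 11 pseudogenes with its name in the knockout libraries, and 43.0% to 44.6% in the wild-type libraries. Knockout replicate 1 shared the proportion of the wild-type libraries, and the other two knockout libraries, those with over 40% unmapped pairs, stood apart.

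**Figure D2:**
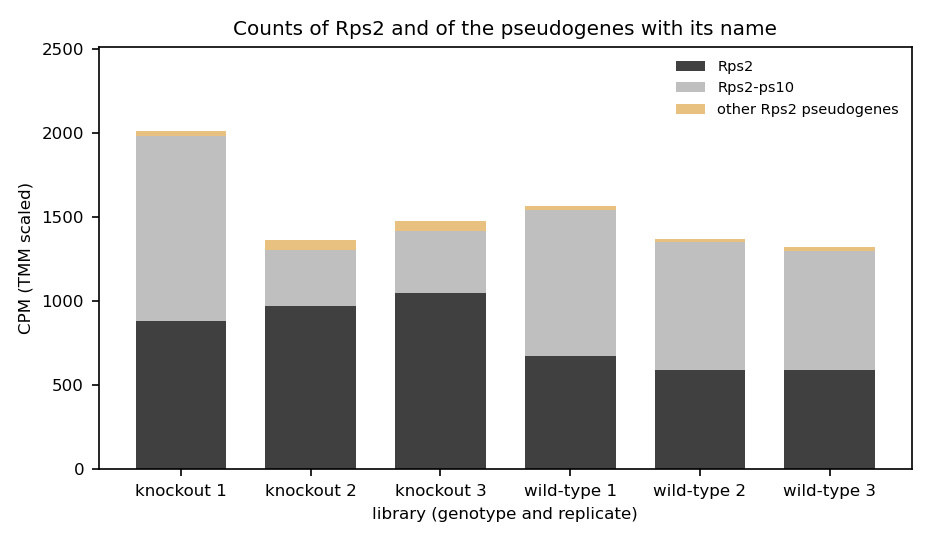
CPM of Rps2 (dark), of its pseudogene Rps2-ps10 (light grey) and of the other Rps2 pseudogenes (tan), stacked for each library, knockout on the left. The stacks of knockout replicates 2 and 3 are in the range of those of wild-type libraries but are divided differently, and knockout replicate 1 has the highest stack, at 2009 CPM.

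Summed over Rps2 and these pseudogenes, the level was 2009, 1360 and 1476 CPM in knockout libraries and 1562, 1370 and 1319 CPM in wild-type libraries, with overlapping groups (log2 fold change 0.19, SE 0.15, edgeR adjusted p = 0.355). The call of Rps2 is therefore uncertain. In all, 60 members have pseudogenes with their name in the tables, and averaged over the 6 libraries the member held under 90% of its family's counts for 4 of them, Rps2, Rpl30, Rpl3 and Rpl13a.

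Rpl13 (ENSMUSG00000000740, chromosome 8, 123102350 to 123105244, plus strand) encodes a protein on the surface of the large subunit, and rose in the knockout tumors. It had 2250, 1762 and 1828 CPM in knockout libraries, against 1373, 1349 and 1275 CPM in wild-type libraries (log2 fold change 0.55, SE 0.12, edgeR adjusted p = 0.0073). The groups did not overlap, and knockout replicate 1 was the highest library. Rpl13 did not pass without wild-type replicate 3 (adjusted p = 0.0752).

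Rpl35 (ENSMUSG00000062997, chromosome 2, 39001580 to 39005624, minus strand) encodes a protein at the rim of the exit tunnel, where the growing peptide leaves the large subunit. The gene had 265, 302 and 402 CPM in knockout libraries and 257, 233 and 222 CPM in wild-type libraries (log2 fold change 0.44, SE 0.15, edgeR adjusted p = 0.0486). Knockout replicate 1 lay only just above the highest wild-type library. In the representative transcript, 68.3% of the bases are covered by exons of other genes, with the largest overlap from Wdr38. Pairs over exons of more than 1 gene are not counted. It no longer passed when knockout replicate 3 (adjusted p = 0.160) or wild-type replicate 1, 2 or 3 (0.0984, 0.151 and 0.220) was left out.

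Of the members that fell, Rps13 (ENSMUSG00000090862, chromosome 7, 116331505 to 116334195, minus strand) encodes a protein of the small-subunit body. It had 575, 498 and 488 CPM in knockout libraries and 733, 616 and 645 CPM in wild-type libraries (log2 fold change -0.35, SE 0.11, edgeR adjusted p = 0.0336). Its groups were separate, but it failed the test once knockout replicate 3 (adjusted p = 0.107) or wild-type replicate 1, 2 or 3 (0.128, 0.0534 and 0.0720) was left out.

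Rpl13a (ENSMUSG00000074129, chromosome 7, 45125558 to 45128761, minus strand) encodes a protein that in human cells can leave the ribosome and repress translation of inflammatory messages. It had 37.1, 36.2 and 40.3 CPM in knockout libraries. In wild-type libraries it had 61.1, 47.1 and 47.5 CPM (log2 fold change -0.45, SE 0.12, edgeR adjusted p = 0.0192). Exons of other genes, with the largest overlap from Gm45713, cover 59.3% of its transcript. The part of this overlap in its low level was not tested. Without wild-type replicate 1, the highest library, it did not pass (adjusted p = 0.0803).

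The P stalk of the large subunit recruits elongation factors, and is built of Rplp0, Rplp1 and Rplp2 on a base next to Rpl12. Rplp2 (ENSMUSG00000025508, chromosome 7, 141447370 to 141451585, plus strand) had 746, 564 and 527 CPM in knockout libraries and 858, 779 and 815 CPM in wild-type libraries (log2 fold change -0.42, SE 0.14, edgeR adjusted p = 0.0427), with no overlap. It kept its call only when knockout replicate 1 was the library left out, and missed it without knockout replicate 2 or 3 (adjusted p = 0.0542 and 0.129) and without wild-type replicate 1, 2 or 3 (0.117, 0.0757 and 0.101). Rplp1, its partner in the stalk dimer, had 2247, 1624 and 1760 CPM in knockout libraries and 2121, 1970 and 1853 CPM in wild-type libraries, with overlapping groups (log2 fold change -0.08, SE 0.13). Rplp0 had 2056, 1737 and 1642 CPM in knockout libraries and 2056, 1880 and 1835 CPM in wild-type libraries (log2 fold change -0.09, SE 0.11). Rpl12 had 1985, 1248 and 1551 CPM in knockout libraries and 1843, 1487 and 1522 CPM in wild-type libraries (log2 fold change -0.02, SE 0.17). Of the 4 stalk genes, only Rplp2 passed the test.

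**Figure D3:**
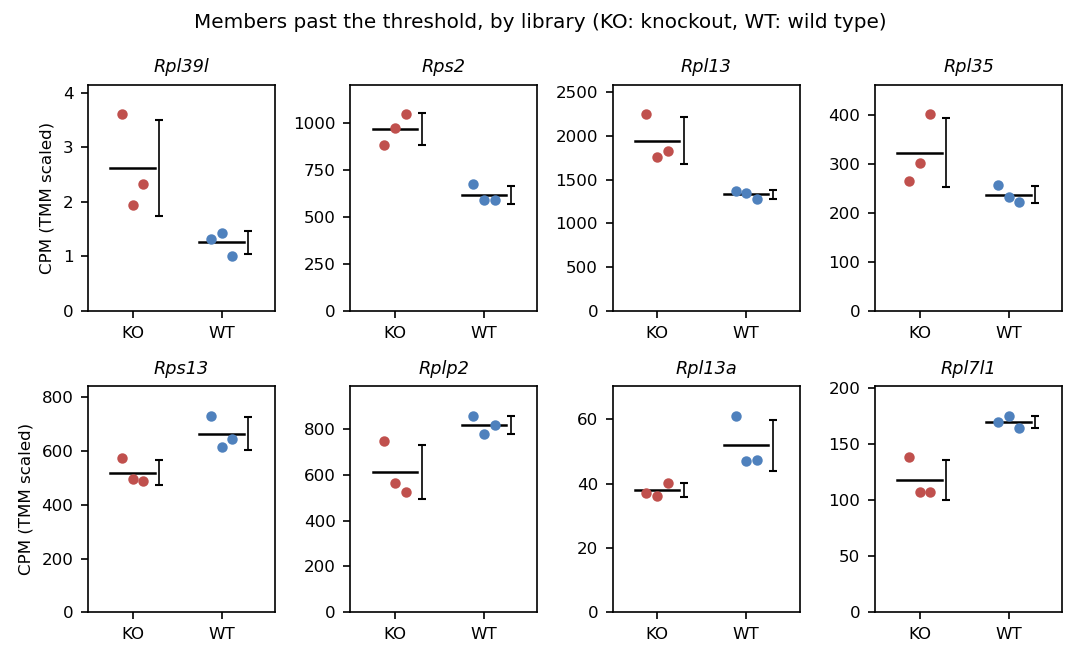
CPM of 8 members past the threshold in each library, knockout on the left and wild type on the right of each panel, with the mean as a line and the SD (n = 3) as an error bar beside it. The panels run from the largest positive to the largest negative log2 fold change, and in each panel the points of the genotypes do not overlap.

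In summed level, the knockout libraries differed among themselves by more than the group means did. Summed over all members, the level was 87569, 61954 and 68045 CPM in knockout libraries and 81898, 73238 and 72033 CPM in wild-type libraries, or 72523 ± 13382 and 75723 ± 5382 CPM (SD, n = 3 each). Relative to the wild-type mean, the median canonical gene lay at 0.15, -0.32 and -0.20 on the log2 scale in knockout replicates 1, 2 and 3. In wild-type replicates 1, 2 and 3 it lay at 0.11, -0.05 and -0.08. Knockout replicate 1 was above both other knockout libraries for 69 of the 77 canonical genes and below both for 6, namely Rpl23a, Rpl28, Rpl35, Rps2, Rps26 and Rps28. These 6 genes were picked out after their values were seen. The SD of log2 levels within the knockout group was larger than that within the wild-type group for 68 of the 77, with medians of 0.25 and 0.11. Over all 19900 genes tested, the knockout SD was the larger for 15950, and the medians were 0.22 and 0.10.

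**Figure D4:**
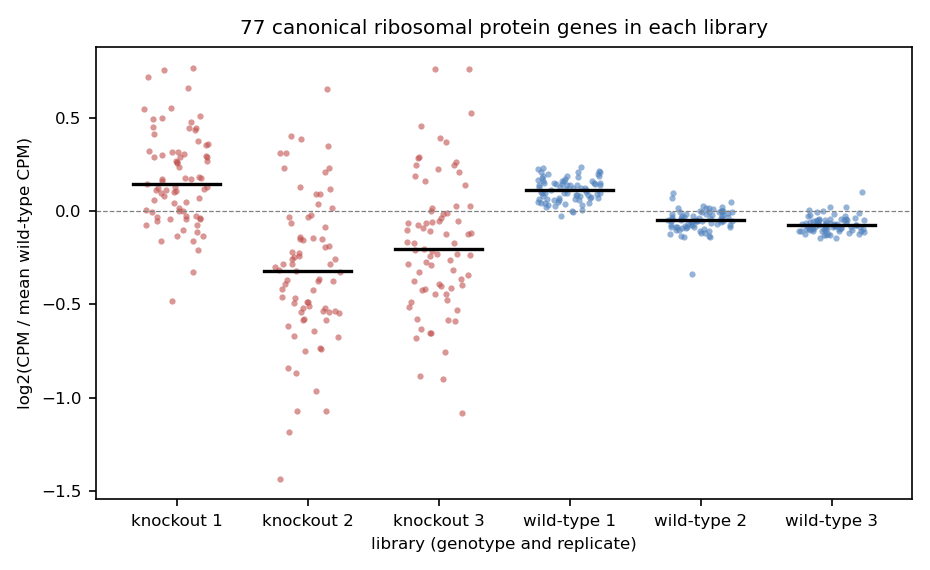
Log2 ratio of the CPM of each canonical ribosomal protein gene to its mean in the wild-type libraries, 1 point a gene and 1 column a library, knockout on the left, with the median as a line. The cloud of knockout replicate 1 lies above and those of knockout replicates 2 and 3 mostly below the wild-type mean, and the knockout clouds are taller than the wild-type ones.

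As a ratio of the highest to the lowest knockout library, the widest gap among canonical members belonged to Rpl39, at 3.34. This gene, whose small protein lines the exit tunnel, had 1000, 299 and 382 CPM in knockout libraries. Its wild-type libraries held 868, 788 and 770 CPM, so that knockout replicate 1 lay above and the other two far below them (log2 fold change -0.53, SE 0.38, edgeR adjusted p = 0.309). Rpl5 and Rpl11, which form the 5S particle with 5S ribosomal RNA, followed the same order. Rpl5 had 1975, 1005 and 1206 CPM in knockout libraries and 1815, 1619 and 1608 CPM in wild-type libraries (log2 fold change -0.27, SE 0.22). Rpl11 had 1107, 624 and 768 CPM in knockout libraries and 899, 781 and 752 CPM in wild-type libraries (log2 fold change 0.04, SE 0.19). Neither passed the test. Rps6, the substrate of the S6 kinases, had 1045, 872 and 994 CPM in knockout libraries and 1261, 1098 and 1079 CPM in wild-type libraries. Its groups did not overlap, but its log2 fold change of -0.24 (SE 0.11) did not pass (adjusted p = 0.121).

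Which knockout libraries entered decided how many members passed. Without knockout replicate 1, 8 members were higher and 43 lower, with a median log2 fold change of -0.31, where 20.6% of all genes tested were higher and 22.7% lower. With the only knockout library that had under 40% unmapped pairs, knockout replicate 1, set against the 3 wild-type libraries, 18 members were higher and 3 lower, with a median of 0.08. The background there was 13.9% higher and 20.8% lower, and that fit takes the spread of the wild-type libraries for the lone knockout library. Rpl13, Rpl39l and Rps2 were called higher, and Rpl7l1 and Rpl13a lower, in both of these fits. Rpl22, Rpl22l1 and Rps18 were called lower in the first and higher in the second, and Rps18 was picked out after its values were seen.

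In each subunit few canonical genes passed, where 36% of all genes tested were called, 17.6% higher and 18.4% lower. Of 46 large-subunit genes 3 were higher and 2 lower (median log2 fold change -0.08), and of 31 small-subunit genes 1 was higher and 2 lower (median -0.17). The ratio of summed large-subunit to summed small-subunit CPM was 1.31, 1.37 and 1.34 in knockout libraries and 1.26, 1.28 and 1.27 in wild-type libraries. The 3 ratios of the knockout group lay above those of the wild-type group. Chromosome 7 holds a larger share of the small-subunit than of the large-subunit genes. All 14 canonical members there had a log2 fold change below 0, and their part in these ratios and medians was not tested. Of the genes near the peptidyl transferase centre, Rpl10 had 1456, 1017 and 936 CPM in knockout libraries and 1216, 1195 and 1235 CPM in wild-type libraries, and did not pass (log2 fold change -0.10, SE 0.16). Rpl3, the other of this pair, had 1309, 978 and 1012 CPM in knockout libraries and 1112, 1075 and 1074 CPM in wild-type libraries (log2 fold change 0.02, SE 0.12). Of 8 genes at the exit tunnel and its rim only Rpl35 was called, and of 6 genes at the decoding site and messenger RNA path only Rps2. None of 5 genes at the small-subunit head and around Rack1 was called. Of 18 members whose human counterparts are mutated in Diamond-Blackfan anemia, a failure of red cell production, Rpl35 was higher and none was lower (median log2 fold change -0.12).

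Some members missed the threshold with separate groups. Rpl10a, which lies in the movable L1 stalk, had 1061, 973 and 983 CPM in knockout libraries and 901, 811 and 775 CPM in wild-type libraries (log2 fold change 0.28, SE 0.10, edgeR adjusted p = 0.0531). Rps4x, the X-linked small-subunit gene, had 1857, 1610 and 1586 CPM in knockout libraries, against 1389, 1406 and 1393 CPM in wild-type libraries (log2 fold change 0.27, SE 0.10, adjusted p = 0.0600). Every knockout library of both genes exceeded every wild-type library.

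Levels were compared between genes as CPM per kilobase of a representative transcript. The median canonical gene had 1228 CPM per kilobase over the 6 libraries, with quartiles of 865 and 1542, a 1.78-fold range. The order of the 77 genes was close to the same in both genotypes (Spearman's rho 0.92 across genes, which share libraries and lengths). Rplp1 averaged 3762 ± 656 and Rpl41 3990 ± 415 CPM per kilobase in knockout libraries, against 3971 ± 270 and 3734 ± 496 in wild-type libraries (SD, n = 3 each), so these 2 did not differ beyond their spread. Rps12 came next, with 3093 ± 574 in knockout and 3051 ± 291 in wild-type libraries. By the mean over both genotypes, Rps27, Rps15 and Rps10 followed, with means of 2331, 2227 and 2271 CPM per kilobase in knockout libraries and 2693, 2461 and 2249 in wild-type libraries. Within the knockout libraries Rpl13 ranked above these 3, at 2495, and within the wild-type libraries Rps9 ranked above Rps15 and Rps10, at 2477. At the low end, Rpl24 had 1.55 ± 0.43 CPM per kilobase in knockout libraries and 1.44 ± 0.26 in wild-type libraries. Exons of other genes, with the largest overlap from Gm28037, cover 71.5% of its transcript. Rpl13a ranks next to last, with 36.2 ± 2.1 in knockout and 49.6 ± 7.6 in wild-type libraries. An overlap of 68.3% in Rpl35 goes with 341 ± 74.8 in knockout and 251 ± 18.7 in wild-type libraries, and the part of the overlaps in these levels was not tested. Rpl29 was at 264 ± 66.7 in knockout and 241 ± 20.6 in wild-type libraries.

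Of the 7 paralogs tested, 1 was higher and 1 was lower, where 36% of all genes tested were called. Rpl7l1 (ENSMUSG00000063888, chromosome 17, 46773907 to 46782672, minus strand), a paralog of Rpl7 that acts in the assembly of the large subunit, had 138, 108 and 107 CPM in knockout libraries. In wild-type libraries it had 170, 175 and 164 CPM (log2 fold change -0.53, SE 0.11, edgeR adjusted p = 0.0082), and the call held with any 1 library left out. Its parent Rpl7 had 2448, 1627 and 1781 CPM in knockout libraries and 1507, 1516 and 1438 CPM in wild-type libraries, with separate groups (log2 fold change 0.39, SE 0.15, adjusted p = 0.0729). Per kilobase of transcript, the level of Rpl7l1 was 5.02%, 5.87% and 5.33% of that of Rpl7 in knockout libraries and 9.99%, 10.3% and 10.1% in wild-type libraries. Unlike the summed levels of members, this ratio set knockout replicate 1 among the other knockout libraries.

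Rpl39l (ENSMUSG00000039209, chromosome 16, 10170226 to 10174911, plus strand), a paralog of Rpl39 known for its role in spermatogenesis in mice, had 3.61, 1.94 and 2.32 CPM in knockout libraries. In wild-type libraries it had 1.33, 1.43 and 1.02 CPM (log2 fold change 1.07, SE 0.29, edgeR adjusted p = 0.0222). The groups were separate, and the call was lost without wild-type replicate 1, 2 or 3 (adjusted p = 0.0724, 0.0552 and 0.113). Per kilobase it stood at 0.402%, 0.719% and 0.677% of Rpl39 in knockout libraries and at 0.147% to 0.202% in wild-type libraries. Of 6 testis germ cell markers, 1 was tested and did not pass, with summed levels of 0.711 to 1.08 CPM in knockout and 0.359 to 0.583 CPM in wild-type libraries.

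Rps27l, a p53 target in human cells, had 135, 66.5 and 75.3 CPM in knockout libraries and 151, 134 and 126 CPM in wild-type libraries. Knockout replicate 1 lay within the wild-type range, and the gene did not pass (log2 fold change -0.57, SE 0.24, edgeR adjusted p = 0.0928). Its parent Rps27 had 976, 663 and 774 CPM in knockout libraries and 1078, 848 and 862 CPM in wild-type libraries (log2 fold change -0.21, SE 0.16), and Rps27rt, a near copy of Rps27, averaged 14.2 ± 2.2 CPM in knockout and 16.3 ± 2.0 CPM in wild-type libraries (SD, n = 3 each). Rpl22l1, which can replace Rpl22 in the ribosome, had 117, 39.1 and 43.5 CPM in knockout libraries and 85.2, 76.6 and 74.3 CPM in wild-type libraries (log2 fold change -0.24, SE 0.36). Rpl22 itself had 803, 354 and 465 CPM in knockout libraries and 653, 555 and 561 CPM in wild-type libraries (log2 fold change -0.13, SE 0.26). In both, knockout replicate 1 was the highest and knockout replicate 2 the lowest library. Rpl36al averaged 0.736 ± 0.303 CPM in knockout and 0.945 ± 0.165 CPM in wild-type libraries. Exons of other genes, with the largest overlap from Gm49383, cover 63.1% of its transcript. Its parent Rpl36a averaged 651 ± 209 CPM in knockout and 700.3 ± 64.8 CPM in wild-type libraries. Rpl3l, the striated muscle form of Rpl3, averaged 0.554 ± 0.281 CPM in knockout and 0.323 ± 0.052 CPM in wild-type libraries, and the summed level of 6 skeletal muscle markers was 51.0 to 60.8 CPM in knockout and 39.7 to 48.5 CPM in wild-type libraries. Rpl10l, known from meiotic germ cells in mice, had 1 count in knockout and 1 count in wild-type libraries and was not tested.

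The per-kilobase ratio of paralog to parent was tested for 7 pairs with a two-sided exact permutation test, whose smallest p for 3 against 3 libraries is 0.1. The groups were separate for 4 ratios, with an exact p of 0.1 (adjusted 0.175 over the 7 pairs): higher in knockout libraries for Rpl39l and lower for Rpl7l1, Rps27l and Rpl36al. The log2 ratios differed by 1.76, -0.91, -0.42 and -0.28 in that order. Those of Rpl22l1, Rps27rt and Rpl3l overlapped. None could pass a threshold of 0.05 in this design.

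The position of the genes was examined after their values were seen. All 14 canonical members on chromosome 7 had a log2 fold change below 0, with a median of -0.35, and all the canonical members called lower, among them Rps13, Rpl13a and Rplp2, lie there. Of the 63 canonical members elsewhere, 36 were below 0, with a median of -0.08. The other protein-coding genes on chromosome 7 had a median of -0.21 and lay below 0 in 64.0%, against -0.03 and 52.0% for the other protein-coding genes of all chromosomes. Of these others on chromosome 7, 32.5% were called lower, beside 4 of the 14 members and 22.7% of the others over all chromosomes. Rpl13, which was called higher, lies on chromosome 8, where the other protein-coding genes had a median of 0.42, with 50.6% called higher. Over the 19 chromosomes with canonical members, the median of the members and that of the other protein-coding genes had Pearson's r of 0.84 and Spearman's rho of 0.65, and the signs were the same for 14. The points share all 6 libraries and their scaling, and at most 7 members stand behind any chromosome other than 7.

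**Figure D5:**
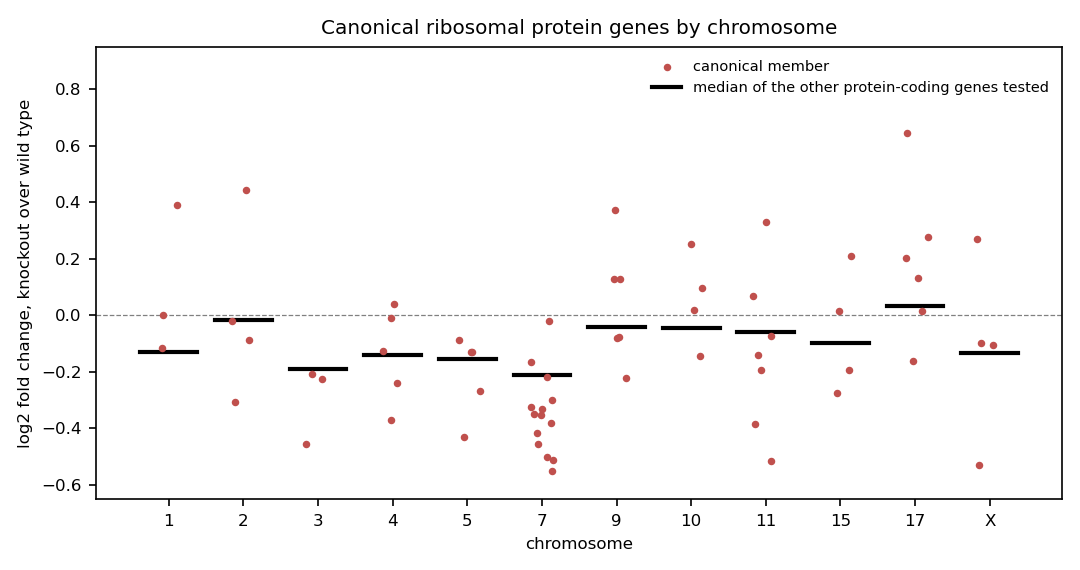
Log2 fold change, knockout over wild type, of the canonical ribosomal protein genes (red points) by chromosome, with the median of the other protein-coding genes tested on that chromosome as a black bar. Chromosomes with at least 3 canonical members are drawn. All 14 points on chromosome 7 lie below 0, and on most chromosomes the points are spread around the bar of the other genes.

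Without chromosomes 7 and 8, the log2 fold changes of the remaining 61 members had Pearson's r of 0.39 with the median of the other genes on their chromosome, against 0.61 for all 77. On chromosome 7, 12 to 14 of the 14 members were below 0 in each alternative processing tried, the lowest number coming with the unmapped share as a covariate and with only libraries under 40% unmapped. Many ribosomal protein genes carry small nucleolar RNAs in their introns. A small nucleolar RNA gene lies inside 30 of the canonical members, of which 3 were higher and 4 lower (23.3% called), and of the 47 without one, 1 was higher and none was lower (2.13% called). Both shares lie below the 36% of all genes tested, the medians of the log2 fold change were -0.11 and -0.12, and the difference between the shares was not tested.

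Other genes of the translation machinery were described from the lists, beside all genes tested, of which 17.6% were higher and 18.4% lower with a median log2 fold change of 0.05. Fau and Rack1, ribosome components without an Rpl or Rps symbol, did not pass. Of 77 mitochondrial ribosomal protein genes tested, 4 were higher and 9 lower, with a median log2 fold change of -0.05. Mrpl17 had 42.4, 37.0 and 32.2 CPM in knockout libraries and 66.8, 61.4 and 60.8 CPM in wild-type libraries (log2 fold change -0.76, SE 0.11, edgeR adjusted p = 0.0014). This gene lies on chromosome 7 as well. Of 21 genes of elongation factors and other TOP messages, 1 was higher and none lower: Pabpc1, the poly(A)-binding protein, had 2432, 3046 and 2809 CPM in knockout libraries and 2158, 2097 and 2212 CPM in wild-type libraries (adjusted p = 0.0328). That call was lost in 5 of 6 fits with 1 library left out, all but the one without knockout replicate 1, with an adjusted p of up to 0.161. Of 25 initiation factors 1 was higher and 2 were lower, among them Eif4e, which binds the cap of messenger RNAs, with 135, 111 and 117 CPM in knockout libraries and 159, 156 and 155 CPM in wild-type libraries (adjusted p = 0.0159), lost without knockout replicate 3 and without each wild-type library (up to 0.0588).

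Of 15 known regulators of ribosomal protein genes and TOP messages tested, 3 were higher and 6 lower, or 60% called, where 36% of all genes tested were called. Myc, the transcription factor that drives ribosome production, had 177, 203 and 172 CPM in knockout libraries and 113, 112 and 121 CPM in wild-type libraries (log2 fold change 0.67, SE 0.09, edgeR adjusted p = 0.000951). Its partner Max had 62.9, 73.9 and 67.2 CPM in knockout libraries and 95.3, 96.5 and 95.8 CPM in wild-type libraries (log2 fold change -0.50, SE 0.09, adjusted p = 0.0033). Sp1, which binds GC boxes, had 82.9, 84.4 and 81.7 CPM in knockout libraries and 111, 113 and 117 CPM in wild-type libraries (log2 fold change -0.45, SE 0.08, adjusted p = 0.0027). These 3 calls held with any 1 library left out. Of 9 tested chaperones and importins of ribosomal proteins, 2 were higher and 5 lower, or 77.8% called beside the same 36%. The importin Ipo7 had 273, 188 and 224 CPM in knockout libraries and 353, 350 and 328 CPM in wild-type libraries (log2 fold change -0.59, SE 0.13, adjusted p = 0.0095), and the Rpl3 chaperone Grwd1 had 38.8, 35.3 and 31.5 CPM in knockout libraries and 47.2, 48.5 and 45.1 CPM in wild-type libraries (adjusted p = 0.0140). Ipo7 and Grwd1 also lie on chromosome 7, and Grwd1 did not pass without wild-type replicate 1 or 2 (up to 0.0660).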

How the data were processed

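Libraries of knockout and wild-type tumors, 3 of each, were sequenced as pairs of 50 bp reads, per the labels. The authors deposited raw counts per gene, an unstranded column and 2 stranded ones. The submitters' processing notes name STAR 2.6.0c, FastQC, DESeq2 and GRCm38. In tables of this layout, pairs that map to several places or to exons of more than 1 gene are left out, so copies and overlapping genes are counted in part. The first 4 rows name no gene and were dropped. The stranded columns split pairs evenly, so antisense genes cannot be told apart.

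Names came from GENCODE M21, which matched 54079 of 54146 rows and lists Rps4l as a pseudogene. All genes went into edgeR 4.0.16 (R 4.3.3; filterByExpr, TMM, glmQLFit, glmQLFTest), 19900 after the filter, with Benjamini-Hochberg adjustment and a threshold of 0.05. SE is the size of the log2 fold change over the root of its F value. The representative transcript was protein-coding, then APPRIS principal, then in CCDS, then the shortest. In simulated data for this comparison (19411 genes), the test recovered 22 of 65 genes changed 1.5-fold, 42 of 67 changed 2-fold and 57 of 65 changed 4-fold, with 9 false among 130 calls. Few genes were changed there, with the same spread in both groups. In the data 36% of genes were called, and the median SD was 0.22 in knockout and 0.10 in wild-type libraries. The simulated shares need not hold for these data. Where no pair was counted, up to 3 pairs are allowed for, 0.0781 to 0.136 CPM by library, for counting error only. Nothing in the labels says that replicates are separate animals, so p-values measure the spread between these samples.

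The members and lists were chosen with earlier results of these data known. Values in every library were given for paralogs and parents, the smallest p and largest called changes, the highest and lowest levels per kilobase, and the stalk, 5S and Rps6 genes, with up to 3 genes by p from each other list. Alternatives were DESeq2 1.42.0, other scalings, filters, columns and covariates, GC and length trends removed, pseudogenes added, and each library left out. Scaling to the members' own counts was added after seeing the data. Results of some genes are not reported by name here.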

Additional observations from a re-analysis of the deposited data

Results flagged for a closer look

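Counts of the pseudogenes with ribosomal protein names lay outside the members and were not part of the comparison above. Of 158 such pseudogenes tested, 41 were higher and 1 was lower in knockout tumors, with a median log2 fold change of 0.41. Over all genes tested, 17.6% were higher and 18.4% lower, with a median of 0.05, against 25.9% higher and 0.633% lower among these pseudogenes. Their summed level was 2965, 2526 and 2707 CPM in knockout libraries and 2691, 2469 and 2293 CPM in wild-type libraries. As a share of the members' CPM it was 3.39%, 4.08% and 3.98% in knockout libraries and 3.29%, 3.37% and 3.18% in wild-type libraries. The mean was 3.81% ± 0.37 in knockout libraries and 3.28% ± 0.09 in wild-type libraries (SD, n = 3 each), and the 2 highest shares belonged to the knockout libraries with over 40% unmapped pairs. The part of the unmapped share in this was not tested. These sums and shares include Rps2-ps10, with 1102, 335 and 373 CPM in knockout and 868, 759 and 712 CPM in wild-type libraries. In knockout replicates 2 and 3 this pseudogene lay below every wild-type library, while the median log2 fold change of the tested pseudogenes was above 0. Its part in the order of the libraries was not tested.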

How the results depend on the processing

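Among the 10 calls, Rpl7l1 passed in 23 of 23 alternatives, Rps2 in 22, Rpl13 in 21, Rpl13a in 19, Rpl39l in 17 of 22, Rps13 in 11, Rplp2 in 10 and Rpl35 in 8, all of them with the direction first given. The number of members higher and lower, 5 and 5, became 10 and 13 with DESeq2, 10 and 3 with library totals alone, 8 and 3 with scaling without the members and pseudogenes, and 10 and 3 with a stranded column. It was 4 and 20 without a filter on low counts and 13 and 2 with a filter of 5 CPM in 3 libraries. It became 18 and 3 with only libraries under 40% unmapped, 15 and 3 with the unmapped share as a covariate, 1 and 1 when the covariate was the share outside exons, 3 and 14 with the length trend removed, and 8 and 5 with counts summed with named pseudogenes. The cause of these moves was not tested. Of all genes tested, 36.0% were called in the main fit, with either of these scalings and with pseudogenes summed. The share was 38.6% with DESeq2, 37.9% with a stranded column and 35.5% with the length trend removed. Without the low-count filter, where 86 members were tested, it was 17.4%, and with the 5 CPM filter 45.5%. With the unmapped share and the share outside exons as covariates it was 27.0% and 25.5%. With 1 replicate left out in turn, 1 to 9 members were higher and 2 to 43 lower. Their median log2 fold change ran from -0.31 to -0.07, and 19.3% to 43.3% of all genes tested were called. Over the other alternatives the median ran from -0.22 to 0.09. With the replicate number as a block, 6 members were higher and 19 lower, where 33.5% of all genes tested were called. Same-numbered libraries had correlations of deviations of 0.11, -0.092 and -0.184. Deviations from a mean of 3 libraries sum to 0 in each group, so these values cannot show whether the numbers pair the libraries. Rpl22 had a log2 fold change of 0.38 with only libraries under 40% unmapped, and Rpl22l1 one of 0.51 there and 0.43 with the unmapped share as a covariate. Few pairs stand behind the values of Rpl24, Rpl3l, Rpl36al, Rpl39l and Rpl10l, each under 4 CPM. For Rpl24 and Rpl36al the part of the exon overlap in this was not tested.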
